A study of Rattus norvegicus with 35 samples.

Results

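The livers compared here came from rats fed triadimefon at 1800 ppm and from rats fed myclobutanil at 2000 ppm, the highest level of each compound in the series. The arrays were chosen by their titles, and 8 of the 32 arrays with values were taken, 4 of each compound. The series lists 35 arrays; 3 of them, including 1 of the myclobutanil 2000 ppm group, carry no values and stayed out. All animals were Wistar Han IGS rats, fed from gestation day 6 to postnatal day 92, with the fungicide given as ppm of the feed. The other groups used beside the pair were triadimefon at 500 ppm (n = 5), myclobutanil at 500 ppm (n = 5) and controls without a compound (n = 7). Propiconazole, another triazole, at 2500 ppm (n = 4) and 500 ppm (n = 3) entered the model of the spread and the slopes below and no comparison. Each array measured RNA of 1 animal on an Affymetrix rat expression array. The labels give neither the sex of the animals nor their litters, so the spread behind each p-value is that of animals that may share a litter. Both compounds are triazoles, and triadimefon carries a ketone where myclobutanil carries a nitrile. The 2 feeding levels differ, so the compound and its level cannot be told apart in this pair.

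Triazole fungicides bind the sterol 14α-demethylase of fungi, whose mammalian counterpart is Cyp51, an enzyme of cholesterol synthesis. When sterol runs low in the endoplasmic reticulum of a liver cell, the transcription factor SREBP2 is released and raises the genes of the pathway together, from acetyl-CoA to cholesterol. Azoles also activate the nuclear receptors CAR and PXR, which induce cytochromes P450, transporters and other enzymes that clear foreign compounds.

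The values are the authors' deposited scores, 1 per probe set and array. Their scale and log base are stated nowhere in the labels or file headers, so a difference of scores is reported as such and not as a log2 fold change. Titles name liver and the extraction protocol names testis. Alb, the hepatocyte albumin gene, lay at the 100th percentile of the probe sets on each of the 8 arrays. The summed score of 13 hepatocyte markers was 56.6 to 72.4 in triadimefon livers and 49.1 to 56.5 in myclobutanil livers. Of 20 testis markers, 9 had a mean score below 0, but transcripts of spermatids, the haploid germ cells of the testis, stood out on some arrays. Prm1, which encodes a protamine that packs sperm DNA, had scores of -0.237, 3.15, -0.253 and -0.329 in triadimefon livers. In myclobutanil livers its scores were 0.953, 0.852, 1.11 and 2.51, and in controls they ran from -0.271 to 1.71. Triadimefon replicate 2 and myclobutanil replicate 5 therefore stood above the rest of their groups in a transcript that liver cells are not known to make. Prm1 lay above 2 on 5 of all arrays with values. These included triadimefon 500 ppm replicate 3 (2.15) and myclobutanil 500 ppm replicates 2 (2.42) and 5 (2.68). Prm1 lay below 0 on 5 arrays, namely triadimefon 1800 ppm replicates 1, 3 and 4 and control replicates 5 and 6. Below, the 2 arrays of high Prm1 score are triadimefon replicate 2 and myclobutanil replicate 5. Results are given with and without these 2 arrays where they differ, and the 500 ppm arrays stayed in.

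**Figure D1:**
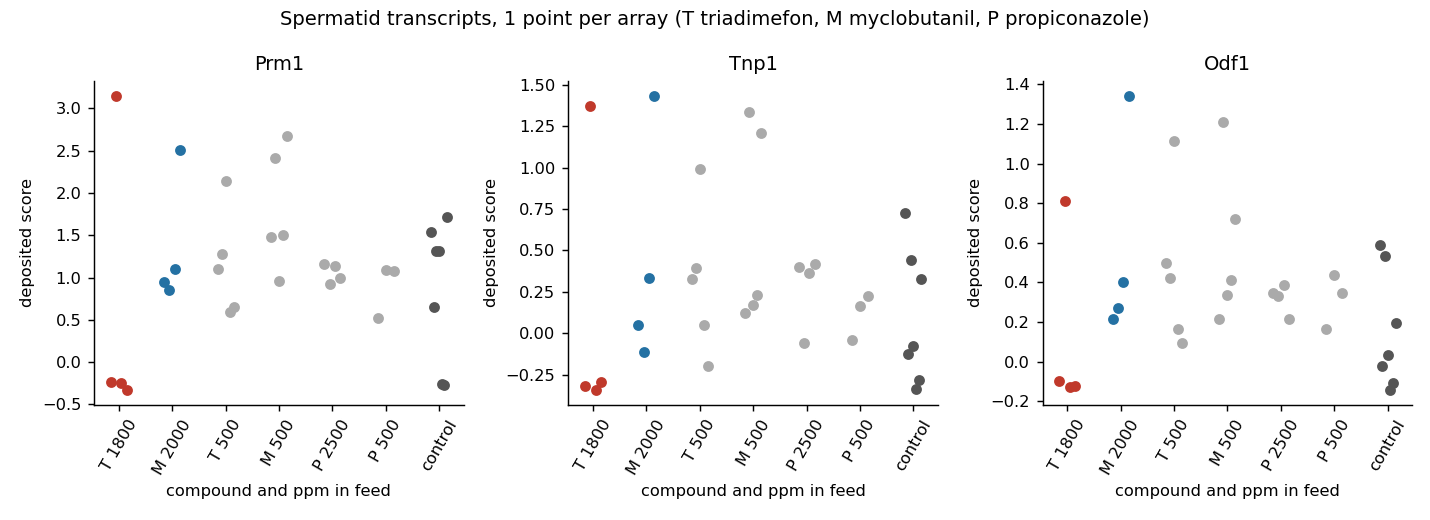
Deposited scores of 3 spermatid transcripts, Prm1, Tnp1 and Odf1, on all 32 arrays, 1 point per array, with compound and ppm on the horizontal axis. For Prm1, triadimefon 1800 ppm replicate 2 stands at 3.15 above the other 3 arrays of its group, which lie below 0, and myclobutanil 2000 ppm replicate 5 stands at 2.51.

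RNA of the 2 groups also differed in how evenly its ends were read. The array carries control probe sets at the 3′ and 5′ ends of GAPDH and β-actin, and the 3′ score minus the 5′ score, averaged over both genes, grows as RNA is degraded. This 3′–5′ difference was 1.17, 1.86, 1.16 and 1.77 on the triadimefon arrays, against 0.609, 0.594, 0.726 and 0.525 on the myclobutanil arrays. The groups did not overlap, and their means were 1.49 ± 0.375 in triadimefon livers and 0.613 ± 0.0833 in myclobutanil livers (SD, n = 4 each). The difference was 0.88, with a two-sided exact permutation p = 0.0286, the smallest that 4 against 4 arrays can give. Controls averaged 1.30 ± 0.595 (SD, n = 7). Across probe sets, the plain difference between the groups followed each probe set's slope on the 3′–5′ difference (Pearson r 0.805 over 31042 probe sets, which share the arrays; a description).

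The 3′–5′ difference was therefore a covariate in the fit, with its slope taken over all 32 arrays. Adjusted p-values below come from limma with Benjamini-Hochberg adjustment over 31042 probe sets, and the threshold is 0.05. With the covariate 66 probe sets passed, which is 0.213% of those tested. Of these, 65 were higher in triadimefon livers (0.209%) and 1 was lower (0.00322%), and 3541 had an unadjusted p of at most 0.05. Without the covariate 4458 passed (14.4%), 4221 of them higher (13.6%) and 237 lower (0.763%). Of the 66, 65 also passed without the covariate in the same direction, the exception being Paqr7. On 64 of the 66 the arrays of the groups did not overlap; over all probe sets that held for 21.3% with triadimefon above myclobutanil and for 2.51% with it below. The number of passing probe sets was 448 without the 2 arrays of high Prm1 score (444 higher, 4 lower, and 64 of the 66 among them) and 35 with the Prm1 score as a second covariate (34 of the 66 among them). It was 243 without triadimefon replicate 2, and 27, 43 and 21 without myclobutanil replicate 2, 3 or 4. The SD of scores over probe sets was 0.816 to 0.919 on triadimefon arrays and 0.704 to 0.791 on myclobutanil arrays. After quantile normalisation with the covariate, 24 probe sets passed (22 of the 66 among them). The median difference over all probe sets was then 0.000512, against 0.0225 without that normalisation. The fit that gave 448 compared groups that do not overlap in Prm1 score. The highest passing difference, 1.14 ± 0.205 (SE, adjusted p = 0.0112), belonged to a probe set that has no gene symbol in the annotation. Its scores were 2.76, 2.32, 2.76 and 2.22 in triadimefon livers and 1.25, 1.39, 0.988 and 1.21 in myclobutanil livers, with controls between the groups at 1.65 to 2.08.

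**Figure D2:**
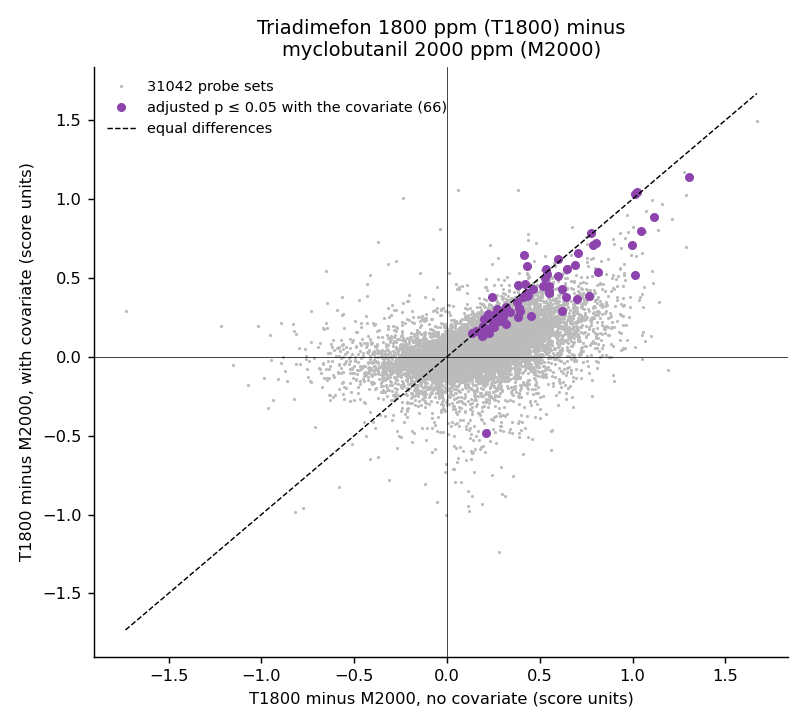
Difference of triadimefon 1800 ppm minus myclobutanil 2000 ppm for 31042 probe sets in score units, without the 3′–5′ covariate on the horizontal axis and with it on the vertical axis. The 66 probe sets past the threshold, in purple, lie above 0 on both axes except for Paqr7, and many grey points with differences up to about 1 without the covariate lie near 0 with it.

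Genes of cholesterol synthesis had the highest median difference of the 34 gene lists read. Of 18 represented members of the pathway list, 8 rose and 0 fell, and 17 had a positive difference. The median difference was 0.59 score units, against 0.03 over the 14217 represented genes, of which 0.317% rose, 0.00703% fell and 69.5% had a positive difference. Without the covariate 15 of 18 rose, with a median of 0.78, and 17.8% of all represented genes. The 8 genes span the pathway, from acetoacetyl-CoA to the removal of methyl groups after lanosterol.

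Upstream sequence is shown for these genes because they moved together. Windows of 250 bases before the RefSeq start on GRCr8 were read for 15 of the 18 members. Both strands were searched for 2 motifs. The box CCAAT, which reads ATTGG on the other strand, is bound by NF-Y, a factor that works beside SREBP2. The letters TCACNCCA, which read TGGNGTGA on the other strand, are a short form of the sterol element that SREBPs bind. CCAAT stood in 12 of the 15 windows (80%), against 34.0% of all 33469 windows. Among the 6 rising members with a window it stood in 5. TCACNCCA stood in 1 of the 15, that of Msmo1, against 3.24% of all windows. A match describes the letters of a window and does not show that a factor binds there. Below are the windows of 4 rising genes, each read 5′ to 3′ along the gene and ending at the base before its start, with both motifs in capitals. Msmo1 holds both motifs (chr16:29746863-29747112, plus strand), with 3 CCAAT boxes. Mvk holds the most boxes of the 4, 5 in all (chr12:47819504-47819753, minus strand). Hsd17b7 holds 3 (chr13:84722755-84723004, minus strand). Mvd, the gene of smallest p in the comparison, holds 1 (chr19:67414975-67415224, minus strand).
Msmo1: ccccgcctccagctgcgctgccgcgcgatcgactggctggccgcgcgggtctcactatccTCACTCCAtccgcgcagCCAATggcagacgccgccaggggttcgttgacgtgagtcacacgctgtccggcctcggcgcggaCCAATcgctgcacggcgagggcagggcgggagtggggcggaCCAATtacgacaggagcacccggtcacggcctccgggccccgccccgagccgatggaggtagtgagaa
Mvk: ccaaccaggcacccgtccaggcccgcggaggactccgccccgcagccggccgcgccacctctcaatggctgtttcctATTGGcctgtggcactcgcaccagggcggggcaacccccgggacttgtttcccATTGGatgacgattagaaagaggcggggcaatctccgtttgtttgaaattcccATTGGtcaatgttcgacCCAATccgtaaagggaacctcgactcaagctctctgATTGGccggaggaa
Hsd17b7: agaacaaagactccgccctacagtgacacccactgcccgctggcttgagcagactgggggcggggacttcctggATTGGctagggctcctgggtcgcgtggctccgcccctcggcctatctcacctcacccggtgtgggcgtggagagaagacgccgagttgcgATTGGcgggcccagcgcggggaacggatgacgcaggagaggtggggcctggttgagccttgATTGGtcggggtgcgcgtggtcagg
Mvd: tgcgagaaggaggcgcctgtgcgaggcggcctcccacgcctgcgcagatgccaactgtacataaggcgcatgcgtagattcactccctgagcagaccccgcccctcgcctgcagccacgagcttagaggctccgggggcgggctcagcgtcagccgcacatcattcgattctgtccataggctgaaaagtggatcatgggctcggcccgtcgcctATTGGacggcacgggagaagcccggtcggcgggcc

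Acat2, the cytosolic thiolase that joins 2 acetyl-CoA units at the entry of the pathway, had scores of 1.64, 1.41, 1.42 and 1.33 in triadimefon livers. In myclobutanil livers they were 0.659, 0.769, 0.516 and 0.655. No array overlapped, and the difference was 0.72 ± 0.0969 (SE, n = 4 each, adjusted p = 0.000669). The mevalonate steps gave 2 risers. Mvk, mevalonate kinase, had scores of 1.47, 1.002, 0.926 and 1.24 in triadimefon livers, against 0.685, 0.753, 0.726 and 0.740 in myclobutanil livers. The groups were apart, with the triadimefon arrays the more spread, and the difference of 0.39 ± 0.0845 lay at the edge of the threshold (adjusted p = 0.0499). Its other 2 probe sets differed by 0.11 and 0.04 without passing. Mvd, the decarboxylase that makes isopentenyl diphosphate, had scores of 1.02, 0.990, 0.933 and 1.13 in triadimefon livers and 0.340, 0.398, 0.310 and 0.429 in myclobutanil livers. Its arrays lay in tight and separate bands, and its difference of 0.56 ± 0.0565 had the smallest adjusted p of the comparison, 7.12e-06. The controls of Mvd, at 0.417 to 0.750, lay below the triadimefon band and reached into the top of the myclobutanil band.

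Squalene and lanosterol are made by 3 enzymes, and the genes of all 3 rose. Fdft1, squalene synthase, had scores of 3.24, 2.77, 2.88 and 2.89 in triadimefon livers, against 2.07, 2.20, 2.22 and 2.48 in myclobutanil livers. No array overlapped (difference 0.66 ± 0.120, adjusted p = 0.0115), and its other probe set differed by 0.65 (adjusted p = 0.00478). Sqle, squalene epoxidase, had scores of 1.24, 1.56, 1.97 and 1.81 in triadimefon livers, against 0.844, 0.953, 0.781 and 0.889 in myclobutanil livers. Triadimefon replicate 1 was the lowest of its group and still above every myclobutanil array (difference 0.79 ± 0.131, adjusted p = 0.00478). Lss, lanosterol synthase, had scores of 0.974, 0.747, 0.922 and 1.04 in triadimefon livers, against 0.377, 0.432, 0.272 and 0.499 in myclobutanil livers. Its arrays did not overlap (difference 0.50 ± 0.0738, adjusted p = 0.00262), and its other probe set differed by 0.20 (adjusted p = 0.0499).

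Past lanosterol, Msmo1 and Hsd17b7 rose. Both act in the removal of the methyl groups at carbon 4 of the sterol, Msmo1 as the oxidase and Hsd17b7 as the reductase of the keto group. Msmo1 had scores of 3.69, 3.05, 3.76 and 3.29 in triadimefon livers and 2.30, 2.48, 2.36 and 2.60 in myclobutanil livers. The groups did not overlap, and the difference of 1.03 ± 0.209 was the largest of the pathway (adjusted p = 0.0289). Hsd17b7 had scores of 1.72, 1.60, 1.73 and 1.84 in triadimefon livers, against 0.943, 1.03, 0.699 and 1.07 in myclobutanil livers. Its groups were also apart (difference 0.71 ± 0.117, adjusted p = 0.00478), and its other probe set differed by 0.39 (adjusted p = 0.109).

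Cyp51 itself, the demethylase whose fungal form the compounds target, did not pass. Its scores were 4.08, 3.83, 4.33 and 3.96 in triadimefon livers, against 2.64, 2.85, 2.70 and 2.85 in myclobutanil livers. The arrays did not overlap, and the controls spanned 2.67 to 3.74. Its slope on the 3′–5′ difference was 0.68 per unit. The difference with the covariate was 0.69 ± 0.233 (95% interval 0.22 to 1.17, adjusted p = 0.229), and without it 1.29 (adjusted p = 0.0119). Its other probe set differed by 0.51 (adjusted p = 0.0779). Dhcr7, the last reductase of the pathway, differed by 0.82 (adjusted p = 0.167; 0.43 without triadimefon replicate 1), and Tm7sf2, the sterol 14-reductase that acts right after Cyp51, by 0.79 (adjusted p = 0.152). Differences of Fdps, Pmvk, Sc5d, Ebp and Nsdhl were 0.62, 0.43, 0.38, 0.33 and 0.23, and none of them passed. Idi1, the isopentenyl diphosphate isomerase, was split within its group, with 1.25 in triadimefon replicate 1 and 2.48 to 2.98 in the other 3, against 1.68 to 1.88 in myclobutanil livers. Its difference was 0.55 (adjusted p = 0.432), and 1.01 without triadimefon replicate 1 (adjusted p = 0.0188). Ggps1, which leads to protein prenylation and not to sterol, was the 1 member with a negative difference, -0.01 (adjusted p = 0.985).

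**Figure D3:**
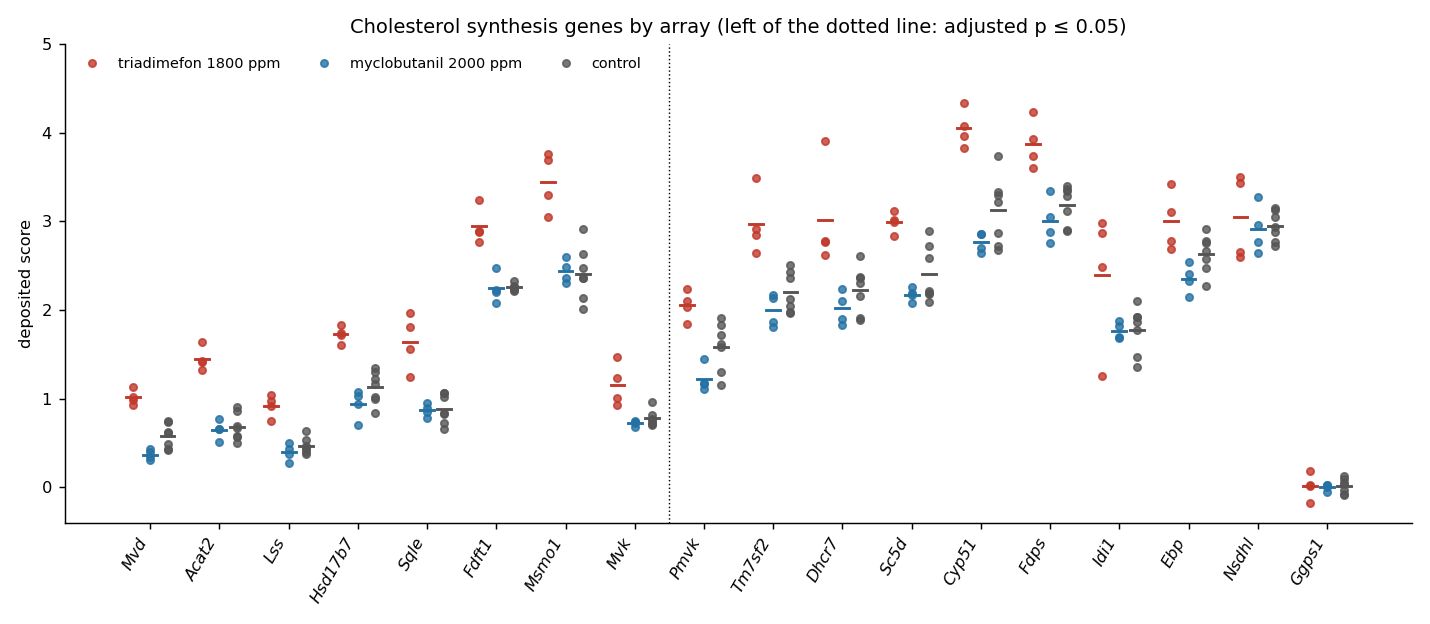
Deposited scores of the 18 represented cholesterol synthesis genes by array, with triadimefon 1800 ppm, myclobutanil 2000 ppm and controls side by side; bars are group means, and genes left of the dotted line passed the threshold. In all 8 genes on the left, every triadimefon array lies above every myclobutanil array, and the myclobutanil arrays lie among the controls or below them, apart from 1 Fdft1 array at 2.48, above the highest control.

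Against the controls, which the next 2 contrasts share, 14 of the 18 genes rose at triadimefon 1800 ppm, with a median difference of 0.59, where 2.5% of all represented genes rose. Without control replicate 7 the count was 9 of 18, where 1.73% of all represented genes rose. At myclobutanil 2000 ppm 0 of 18 rose or fell in limma, with a median of -0.02. Over all probe sets 604 passed at triadimefon 1800 ppm against controls (1.95%) and 2 at myclobutanil 2000 ppm (0.00644%), where 1887 had an unadjusted p of at most 0.05. Msmo1 differed from controls by 1.04 at triadimefon 1800 ppm and by 0.01 at myclobutanil 2000 ppm, with a 95% interval of -0.36 to 0.38 for the second value. Acat2 differed by 0.75 at triadimefon 1800 ppm and by 0.03 at myclobutanil 2000 ppm. Mvd differed by 0.42 at triadimefon 1800 ppm and by -0.14 at myclobutanil 2000 ppm (adjusted p = 0.661), and Cyp51 by 0.80 at triadimefon 1800 ppm (adjusted p = 0.0189) and by 0.10 at myclobutanil 2000 ppm.

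Passing calls in the pathway depended on single arrays for some genes and not for others. Acat2, Mvd, Lss, Hsd17b7 and Sqle passed without any one of the 8 arrays. Mvk missed the threshold without triadimefon replicate 1 (difference 0.25, adjusted p = 0.166) or 4 and without any one myclobutanil replicate, with adjusted p of 0.0707 to 0.153 in these. Fdft1 missed the threshold without triadimefon replicate 1 (difference 0.53, adjusted p = 0.0622), without myclobutanil replicate 2 (0.60, adjusted p = 0.0590) and without myclobutanil replicate 4 (0.65, adjusted p = 0.0562). Msmo1 missed it without triadimefon replicate 1 or 3 and without myclobutanil replicate 2, 3 or 4, with differences of 0.90 to 1.05 and adjusted p of 0.0627 to 0.113. Without myclobutanil replicate 2 or replicate 4 the number of risers was 5 of 18, against 0.155% and 0.12% of all represented genes. Without the 2 arrays of high Prm1 score, 12 of 18 rose with a median of 0.67, against 2.24% of all represented genes. In a fit of the 8 arrays alone with the covariate, 3 of 18 rose (median 0.93), against 0.957% of all represented genes. They were Acat2, Msmo1 and Cyp51, and the other 6 of the 8 risers had adjusted p of 0.0576 to 0.272 there. Of the triadimefon animals, replicates 2 to 4 had animal numbers above 3000 and replicate 1 a lower one, as had every myclobutanil animal. With the number series as a term, 11 of 18 rose (median 0.64), against 0.928% of all represented genes. Among animals numbered below 3000, with 1 triadimefon liver against 4 myclobutanil livers, 14 rose (median 0.72), where the lone array is assumed to vary like the others. In that fit 18.6% of all represented genes rose, so its count is not comparable with the 8 of 18. Above 3000 there was no myclobutanil animal, so no value can be given.

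Genes next to the pathway gave 3 further risers. Erg28, an endoplasmic reticulum protein that in yeast holds the C4-demethylation enzymes together, had scores of 1.73, 1.87, 1.40 and 1.90 in triadimefon livers, against 1.04, 1.07, 1.09 and 1.22 in myclobutanil livers (difference 0.43 ± 0.0859, adjusted p = 0.0256). Aacs, which makes acetoacetyl-CoA from ketone bodies for lipid synthesis, had scores of 0.409, 0.199, 0.225 and 0.238 in triadimefon livers, against 0.0188, 0.0350, -0.0122 and -0.0396 in myclobutanil livers (0.30 ± 0.0566, adjusted p = 0.0146). Sort1, a sorting receptor that binds apolipoprotein B in the liver, had scores of 0.524, 0.461, 0.539 and 0.425 in triadimefon livers, against 0.305, 0.264, 0.194 and 0.230 in myclobutanil livers (0.24 ± 0.0385, adjusted p = 0.00407). The arrays of the groups were apart for all 3 genes, which were named after their values were seen. Sort1 passed without any one of the 8 arrays, while its other probe set differed by 0.05 (adjusted p = 0.828). Erg28 missed the threshold without triadimefon replicate 1 or 4 or myclobutanil replicate 2, 3 or 4 (0.40 to 0.42, adjusted p 0.0566 to 0.105), and Aacs without triadimefon replicate 1 (0.25, adjusted p = 0.0794) or myclobutanil replicate 4 (0.30, adjusted p = 0.0635). Of 17 genes of sterol regulation and transport 0 passed in limma, 16 had a positive difference and the median was 0.20. In that list 7 had an unadjusted p of at most 0.05, all of them higher in triadimefon livers. Over all represented genes 13% were higher at such a p and 1.41% lower, 69.5% had a positive difference and the median was 0.03. Insig1, which holds SREBP2 back and is itself an SREBP target, differed by 0.97 (adjusted p = 0.183), and Abcg1, a sterol exporter, by 0.25 (adjusted p = 0.128). Srebf2, the gene of SREBP2, differed by 0.18 (adjusted p = 0.445).

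Among genes induced through CAR and PXR, a carboxylesterase and the electron donor of the P450 enzymes passed. The largest difference of the list, 1.17, belonged to Aldh1a1, which did not pass and is given below. Of 29 represented phase I genes, 2 rose and 0 fell, and 25 had a positive difference. The median difference was 0.14, against 0.03 over all represented genes, of which 0.317% rose and 69.5% had a positive difference. Without the covariate the median of the list was 0.66 with 6 risers of 29. Over all represented genes the median was then 0.087, and 17.8% rose. Ces2c, an esterase that cleaves drugs and lipids, had scores of 3.35, 2.79, 2.72 and 2.83 in triadimefon livers and 1.97, 2.25, 1.90 and 1.47 in myclobutanil livers. The groups were apart by a wide gap, and the difference was 1.04 ± 0.211 (adjusted p = 0.0283). It differed from controls by 1.75 at triadimefon 1800 ppm and by 0.71 at myclobutanil 2000 ppm (adjusted p = 0.441). Por, cytochrome P450 oxidoreductase, which also serves Cyp51 and Sqle, had scores of 2.80, 2.44, 2.01 and 2.39 in triadimefon livers and 1.29, 1.48, 1.38 and 1.04 in myclobutanil livers. Again no array overlapped (difference 0.89 ± 0.194, adjusted p = 0.0499), while its other probe set differed by 0.27 (adjusted p = 0.597). Both calls were lost on leaving out single arrays. Ces2c missed the threshold without triadimefon replicate 1 (0.87, adjusted p = 0.119) and without myclobutanil replicate 2, 4 or 5 (0.91 to 1.07, adjusted p 0.0648 to 0.0993). Por missed it without triadimefon replicate 1 (0.69, adjusted p = 0.208) or 4 and without any one myclobutanil replicate, with adjusted p of 0.0596 to 0.133 in these. Without triadimefon replicate 1 the median of the list was -0.03.

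The classical P450 targets were higher in triadimefon livers in their scores, but none passed. Cyp2b2 and Cyp2b1, the phenobarbital-inducible P450s, share 1 probe set and are read as 1 signal. It had scores of 6.28, 5.16, 5.46 and 4.86 in triadimefon livers, against 4.19, 4.48, 4.71 and 3.55 in myclobutanil livers. Both groups lay above every control, at 2.14 to 3.03. The difference between the compounds was 0.87 ± 0.374 (95% interval 0.11 to 1.64, adjusted p = 0.357), and without the covariate 1.21 (adjusted p = 0.0267). Without triadimefon replicate 1 it was 0.48 with the covariate. It differed from controls by 2.86 at triadimefon 1800 ppm (adjusted p = 1.61e-06) and by 1.98 at myclobutanil 2000 ppm (adjusted p = 0.0475). The second call was lost without myclobutanil replicate 2, 3 or 4 or control replicate 1, 2, 4, 5 or 6 (difference 1.83 to 2.08, adjusted p 0.0574 to 0.517). Ugt2b1, a glucuronosyltransferase, was the other probe set past the threshold at myclobutanil 2000 ppm against controls. It had 4.20, 4.05, 4.37 and 3.92 in triadimefon livers, 3.40, 3.60, 3.84 and 3.44 in myclobutanil livers and 2.28 to 2.78 in controls, and the compounds differed by 0.21 (adjusted p = 0.834). Its difference from controls at myclobutanil 2000 ppm was 1.31 (adjusted p = 0.0475). That call was lost without any one myclobutanil replicate or any of control replicates 1 to 6 (1.23 to 1.37, adjusted p 0.0712 to 0.517). Cyp3a23-3a1, the PXR marker, had scores of 5.84, 5.09, 5.23 and 4.85 in triadimefon livers, against 3.92, 4.15, 4.37 and 4.01 in myclobutanil livers. Although no array overlapped, its difference was 0.35 ± 0.345 with the covariate (95% interval -0.36 to 1.06, adjusted p = 0.773) and 1.14 without it. Its slope on the 3′–5′ difference was 0.91 per unit.

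Aldh1a1, an aldehyde dehydrogenase that makes retinoic acid, had scores of 4.29, 4.03, 4.09 and 4.05 in triadimefon livers, against 2.76, 2.88, 3.07 and 2.64 in myclobutanil livers. The 2 bands were far apart, yet the difference of 1.17 ± 0.327 did not pass (95% interval 0.50 to 1.84, adjusted p = 0.150). Nor did it pass without control replicate 7 (0.98, adjusted p = 0.170), which stood at 0.888 against 1.83 to 2.09 in the other controls. Alas1, the first enzyme of heme synthesis, differed by 0.79 ± 0.220 (adjusted p = 0.150), and by 0.91 without triadimefon replicate 2 (adjusted p = 0.0395). Cyp1a1, the P450 induced through the aryl hydrocarbon receptor, had scores of 1.51, 3.12, 2.60 and 2.95 in triadimefon livers, against 1.23, 1.45, 1.08 and -0.259 in myclobutanil livers. Triadimefon replicate 1 was close to the highest myclobutanil array and myclobutanil replicate 5 was at the level of the controls, which spanned -0.112 to 0.342. The difference was 1.497 ± 0.461 (95% interval 0.55 to 2.44, adjusted p = 0.192). None of the 9 represented targets of the aryl hydrocarbon receptor passed in limma.

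Among 21 drug and bile transporters 1 rose, with a median difference of 0.12, against 0.317% and 0.03 over all represented genes. Abcc3, an efflux pump that sends conjugates and bile acids back to blood, had scores of 0.682, 0.883, 0.614 and 0.838 in triadimefon livers, against 0.320, 0.297, 0.249 and 0.00134 in myclobutanil livers. Myclobutanil replicate 5 alone was at the level of the controls, which spanned -0.0807 to -0.0156, and no array overlapped between the compounds (difference 0.52 ± 0.103, adjusted p = 0.0248). It missed the threshold without triadimefon replicate 4 (0.50, adjusted p = 0.0522), myclobutanil replicate 4 (0.53, adjusted p = 0.0735) or myclobutanil replicate 5 (0.45, adjusted p = 0.0624). The canalicular pumps Abcb11 and Abcc2, for bile salts and conjugates, each differed by 0.44 without passing, and the uptake carrier Slco2b1 by 0.29, with 0.000997 at its other probe set. Without triadimefon replicate 1 these differences were 0.20 for Abcb11, 0.19 for Abcc2 and 0.10 for Slco2b1.

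Stress and early response genes gave 2 risers of 29, against 0.317% of all represented genes, and their median of 0.05 lay close to the 0.03 of all. Gadd45b, a growth arrest and DNA damage gene, had scores of 0.221, 0.343, 0.575 and 0.714 in triadimefon livers, against 0.0591, -0.0162, 0.0442 and 0.0360 in myclobutanil livers. Its triadimefon arrays were spread widely above a flat myclobutanil group (difference 0.40 ± 0.0712, adjusted p = 0.00960), and it passed without any one array. App, the amyloid precursor gene, had scores of 3.73, 3.32, 3.53 and 3.13 in triadimefon livers, against 2.32, 2.46, 2.40 and 2.35 in myclobutanil livers. The groups did not overlap (difference 0.80 ± 0.172, adjusted p = 0.0454), and its other probe sets differed by 0.57 (adjusted p = 0.0310) and by -0.000799. App missed the threshold without triadimefon replicate 1 (0.64, adjusted p = 0.193) or 3, or without any one myclobutanil replicate, with adjusted p of 0.0717 to 0.141 in these. In the other direction Nupr1, a stress-induced chromatin protein, had scores of -0.147, -0.0883, 0.337 and 0.168 in triadimefon livers, against 0.797, 0.206, 1.44 and 1.10 in myclobutanil livers. Myclobutanil replicate 3 lay inside the triadimefon range, and the difference of -0.99 ± 0.309 did not pass (adjusted p = 0.201). Arrdc3, an arrestin-like protein that restrains receptor signalling, differed by -0.63 (adjusted p = 0.172), and by -0.76 without triadimefon replicate 2 (adjusted p = 0.0371).

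**Figure D4:**
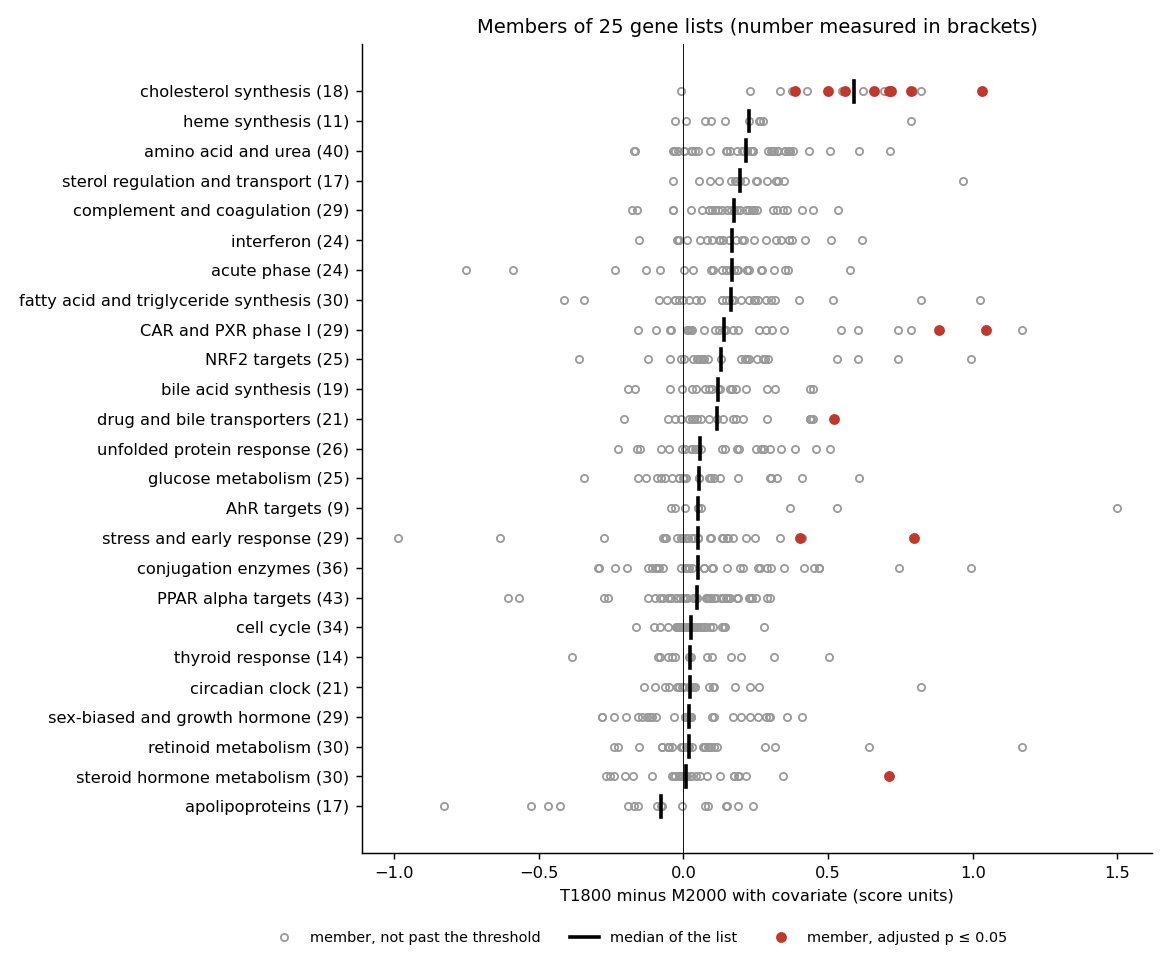
Differences of triadimefon 1800 ppm minus myclobutanil 2000 ppm, with the covariate and in score units, for the members of 25 gene lists, 1 row per list; filled points passed the threshold and black bars are list medians. The cholesterol synthesis list stands farthest right, with a median of 0.59 and 8 filled points, and the apolipoproteins farthest left, with a median of -0.08 and 0 filled points.

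The remaining rises among the named genes belonged to no single list. RT1-Db1, an MHC class II β chain of antigen-presenting cells, had scores of 1.71, 1.73, 1.002 and 1.499 in triadimefon livers, against 0.465, 0.664, 0.407 and 0.425 in myclobutanil livers. Its arrays did not overlap (difference 0.71 ± 0.138, adjusted p = 0.0219), and its other probe set differed by 0.35 (adjusted p = 0.485). It missed the threshold without triadimefon replicate 1 (0.58, adjusted p = 0.104) or myclobutanil replicate 2 or 4 (adjusted p = 0.0648 and 0.105). Beside it stood the markers of Kupffer cells, the macrophages of the liver. Of 14 such markers 0 passed in limma, 7 had an unadjusted p of at most 0.05 with a higher score in triadimefon livers, and 13 had a positive difference (median 0.34). Over all represented genes 13% were higher at such a p, 69.5% had a positive difference and the median was 0.03. The summed score of the 14 markers was 18.8 to 23.4 in triadimefon livers, 15.4 to 18.3 in myclobutanil livers and 14.3 to 21.0 in controls, and its part in the RT1-Db1 difference was not tested. In bulk liver, fewer cells of a type and less RNA per cell cannot be told apart. Marker sums, those of hepatocytes above included, are of deposited scores without the covariate. Scores were also more spread on each triadimefon array (SD over probe sets 0.816 to 0.919) than on any myclobutanil array (0.704 to 0.791). The part of this spread in the sums was not tested. Summed scores of 19 stellate cell markers were 11.3 to 14.7 in triadimefon livers and 8.58 to 9.94 in myclobutanil livers, and those of 13 endothelial markers 11.04 to 13.2 in triadimefon livers and 9.80 to 11.2 in myclobutanil livers, with 0 markers past the threshold. At an unadjusted p of at most 0.05, 8 of the 19 stellate and 2 of the 13 endothelial markers were higher in triadimefon livers and 0 lower. The same held for 9 of 24 interferon genes, so such rises were not particular to Kupffer cell markers. The 15 lymphocyte markers summed to below 0 in both groups. The 9 markers of cholangiocytes, the cells of the bile ducts, summed to 0.433 to 0.888 in triadimefon livers, against -0.538 to -0.0672 in myclobutanil livers and -0.539 to -0.0552 in controls, without overlap. None passed in limma, all 9 had a positive difference (median 0.02), and Epcam alone had an unadjusted p of at most 0.05 (difference 0.49, adjusted p = 0.185). The keratins Krt7 and Krt19, which define these cells, had mean scores below 0.

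Sbspon, a secreted matrix protein with a thrombospondin repeat, had scores of 0.626, 0.606, 0.474 and 0.795 in triadimefon livers, against -0.0979, 0.0539, -0.113 and -0.109 in myclobutanil livers. Controls spanned -0.246 to 0.0605, so the triadimefon arrays stood above all of them (difference 0.58 ± 0.0722, adjusted p = 0.000202). Nfe2, a leucine zipper factor of blood-forming cells, had scores of 0.639, 0.0345, 0.0866 and 0.196 in triadimefon livers, against -0.283, -0.274, -0.337 and -0.289 in myclobutanil livers. Triadimefon replicate 1 was the highest by far, and the difference of 0.56 ± 0.0983 (adjusted p = 0.00960) was 0.40 without it and still past the threshold. Inf2, a formin that remodels actin filaments, had scores of 1.30, 1.46, 1.19 and 1.58 in triadimefon livers, against 0.596, 0.606, 0.534 and 0.522 in myclobutanil livers. Its groups were apart (difference 0.54 ± 0.0977, adjusted p = 0.0115), and without myclobutanil replicate 4 it missed the threshold (0.52, adjusted p = 0.0635). Nipal2, a member of the NIPA-like membrane proteins, had scores of 1.07, 0.499, 0.792 and 0.730 in triadimefon livers, against 0.185, 0.303, 0.00455 and 0.192 in myclobutanil livers. Its arrays were apart as well (difference 0.62 ± 0.115, adjusted p = 0.0146), with the call lost without triadimefon replicate 1 (0.50, adjusted p = 0.0765) or myclobutanil replicate 4 (0.56, adjusted p = 0.0889).

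Paqr7, a membrane progestin receptor, was the 1 gene that fell, and it did so only with the covariate. Its scores were 1.31, 1.72, 1.22 and 1.79 in triadimefon livers, against 1.23, 1.11, 1.48 and 1.38 in myclobutanil livers. The groups overlapped, and the plain means were 1.51 in triadimefon livers and 1.30 in myclobutanil livers. Its slope on the 3′–5′ difference was 0.79 per unit over the 32 arrays. With that slope in the fit, the triadimefon arrays lay below the myclobutanil arrays (difference -0.48 ± 0.103, adjusted p = 0.0397). The call rests on the slope, since the 3′–5′ difference was at most 0.726 on myclobutanil 2000 ppm arrays and at least 1.16 on triadimefon 1800 ppm arrays. Without the covariate the difference was 0.21, and the call was lost without triadimefon replicate 1, 3 or 4 or myclobutanil replicate 2, 4 or 5 (-0.51 to -0.44, adjusted p 0.0522 to 0.167).

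**Figure D5:**
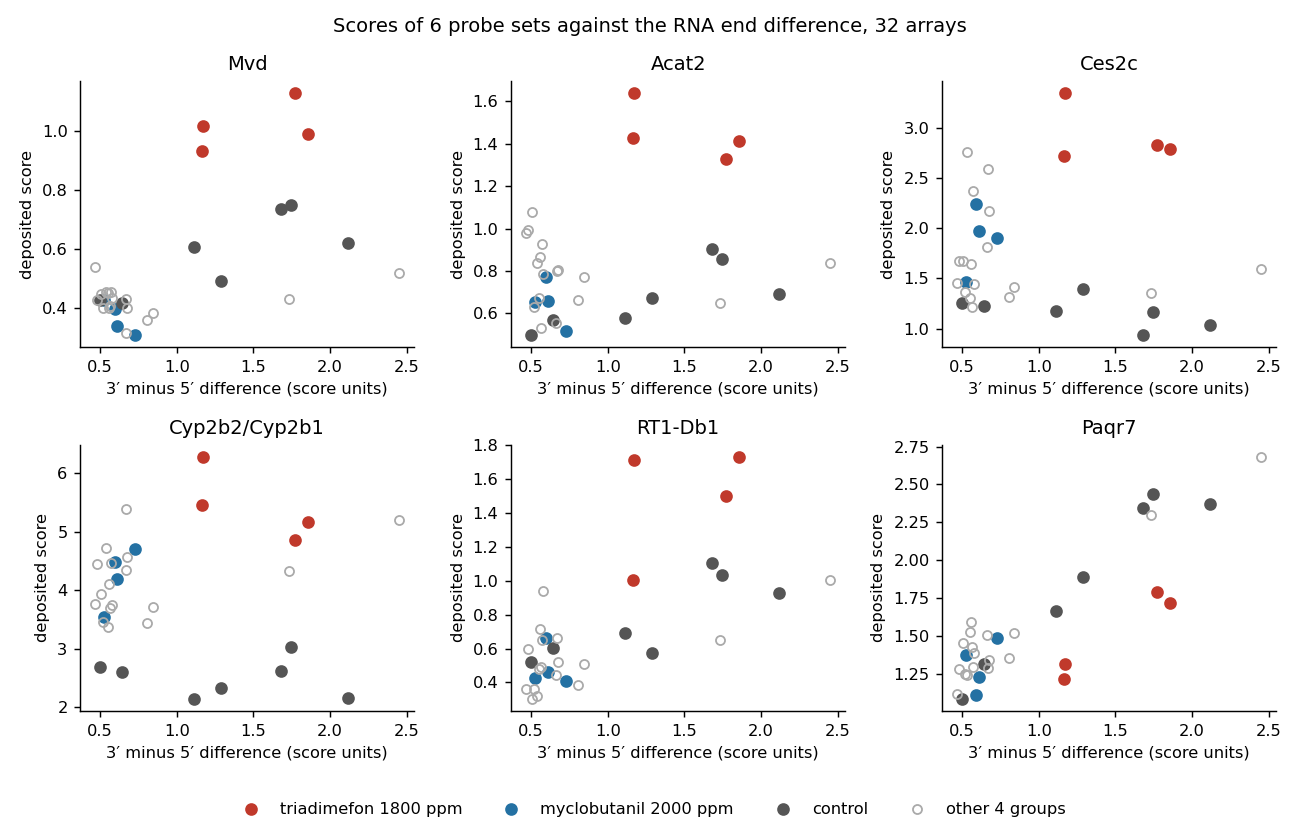
Deposited score of 6 probe sets against the 3′ minus 5′ difference of the array in score units, 1 point for each of the 32 arrays. For Mvd, Acat2 and Ces2c the triadimefon 1800 ppm arrays lie above all controls at the same 3′–5′ difference. For Paqr7 scores climb with that difference, and the triadimefon 1800 ppm scores of 1.22 to 1.79 lie within the control range of 1.09 to 2.43.

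At the matched level of 500 ppm, 0 probe sets passed between triadimefon and myclobutanil in limma, and 1375 had an unadjusted p of at most 0.05. The 3′–5′ difference was 0.518 ± 0.0479 at triadimefon 500 ppm and 1.21 ± 0.849 at myclobutanil 500 ppm (SD, n = 5 each). Myclobutanil 500 ppm replicates 1 and 5 stood at 2.45 and 1.73. Score ranges below are without the covariate, and differences and intervals are with it. Sqle scores were 1.12 to 1.36 at triadimefon 500 ppm and 0.729 to 0.906 at myclobutanil 500 ppm, so the 5 arrays of each group did not overlap. The difference was 0.45 (95% interval 0.22 to 0.69, adjusted p = 0.971). Acat2 scores were 0.784 to 1.08 at triadimefon 500 ppm and 0.630 to 0.839 at myclobutanil 500 ppm (difference 0.31, 95% interval 0.14 to 0.49). Msmo1 differed by 0.40 (0.02 to 0.77), Lss by 0.17 (0.04 to 0.30), Idi1 by 0.70 (0.23 to 1.18) and Mvd by 0.09 (-0.01 to 0.19). The median over the 18 cholesterol synthesis genes was 0.17. Cyp1a1 differed by 1.08 (0.25 to 1.91), with scores of 0.140 to 2.22 at triadimefon 500 ppm and -0.149 to 0.730 at myclobutanil 500 ppm. These intervals are not adjusted over probe sets.

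Whether the difference between the compounds itself changed from 500 ppm to the high level was tested as an interaction. In limma 0 probe sets passed and 2705 had an unadjusted p of at most 0.05. The mean 3′–5′ difference was higher with triadimefon between the high levels and higher with myclobutanil at 500 ppm. The interaction therefore rests on the slope of the covariate. The smallest adjusted p, 0.0731, was shared by Mvd, Sbspon, Sort1 and a probe set with no gene symbol. The difference of Mvd was 0.56 between the high levels and 0.09 at 500 ppm, that of Sbspon 0.58 and 0.01, and that of Sort1 0.24 and -0.07. For Sqle, by comparison, the values were 0.79 and 0.45. Without triadimefon 1800 ppm replicate 1, 1 probe set passed.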

How the data were processed

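RNA of individual rats was hybridised to Affymetrix rat arrays, per the labels' protocols. The authors deposited a score for each of 31099 probe sets on each array. Neither the labels nor the file headers say how arrays were summarised or normalised, or on what scale, log base or centring the score stands. The test, meant for log2 values, took these scores as they stand. The 57 control probe sets of the maker were not tested, and 0 columns of values were left unmapped. The platform annotation gave 1 symbol to 20826 of the 31042 tested probe sets, several to 436 and none to 9780. A gene was represented by its probe set of 1 symbol with the highest mean score.

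All 7 groups entered 1 limma model (limma 3.58.1 and R 4.3.3, with version 1.17.8 of data.table) with the 3′–5′ difference as covariate, lmFit, contrasts and eBayes, 24 residual and 2.37 prior degrees of freedom, two-sided tests and Benjamini-Hochberg adjustment within a comparison. The single value per array was tested by exact permutation (SciPy 1.17.1, NumPy 2.4.6, pandas 2.3.3, Python 3.11.15), and figures were drawn with matplotlib 3.10.9. The fit was tested on simulated scores. Named genes were the 15 largest passing rises and falls, at most 4 members by p from every list that had a passing gene, and Cyp2b, Cyp1a1, Cyp3a23-3a1, Cyp51 and Aldh1a1 in every case; other cholesterol synthesis genes are given as members of their list. The groups, the 34 gene lists and the tests were chosen with earlier results of these data known. Arrays of a group held different values, with correlations across probe sets of 0.933 to 0.990 at triadimefon 1800 ppm and 0.990 to 0.996 at myclobutanil 2000 ppm. The number of arrays limits the precision. Promoter windows are RefSeq's on GRCr8; genes were matched to them by symbol.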

Additional observations from a re-analysis of the deposited data

Results flagged for a closer look

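In 11 of 114 groups of 4 or 7 arrays, 1 array lay farther from the rest than Dixon's limit. The groups were read for the named genes, the 3′–5′ difference and the spermatid transcripts. Chance gives about 5% of groups. The spermatid transcripts rise and fall together and were read because of the arrays with high Prm1. The count of 11 can therefore not be set against that share. For Sbspon, myclobutanil 2000 ppm replicate 3 stood apart at 0.0539, against -0.113 to -0.0979 in the other 3. For Aldh1a1, control replicate 7 stood apart at 0.888, against 1.83 to 2.09 in the other controls. The other 9 were spermatid transcripts, and each time it was 1 of the same 2 arrays that stood above its group. In triadimefon 1800 ppm replicate 2, Prm1 was at 3.15, Tnp1, a transition protein of sperm chromatin, at 1.37, Tnp2, its partner, at 0.597, Odf1, a protein of the sperm tail, at 0.812 and Smcp, a sperm mitochondrial protein, at 0.744. In myclobutanil 2000 ppm replicate 5, Prm1 was at 2.51, Tnp2 at 0.756, Odf1 at 1.34 and Smcp at 1.14. Tnp1 followed Prm1 over the 32 arrays (Pearson r 0.918, a description).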

How the results depend on the processing

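The number of probe sets past the threshold, 66, was 4458 without the covariate, 139 with the GAPDH difference alone as covariate, 24 after quantile normalisation with the covariate, 193 with the animal number series as a term, 4780 among animals numbered below 3000 and 6509 among arrays with a GAPDH difference of at most 0.9 and no covariate (each 1 liver against 4), and 213 (6 of the 66 among them) and 4165 with only the arrays of the pair, with and without the covariate. It was 58 without the dimmest 40% of probe sets and 72 with trend and robust eBayes. Settings chosen after seeing the data gave 815 (quantile, no covariate: 551 higher, 264 lower), 23 (both control differences as covariates), 36 (with the square), 35 (Prm1 score) and 448 (without both high Prm1 arrays); leaving out single arrays gave 21 to 243. Replicate numbers 2 to 4 occur in both groups; same-numbered arrays deviated together with r of 0.290, -0.0618 and 0.0947, so the numbers do not pair the animals, and with the replicate block 94 passed (48 of the 66 among them). The 8 rising cholesterol synthesis genes were 15 without the covariate, 14 among animals below 3000 and among arrays of low GAPDH difference, 3 and 15 with only the pair, with and without the covariate, 5 with 2 covariates, 12 without both high Prm1 arrays, 7 with the replicate block and 5 to 8 without single arrays. Against controls, the 604 at triadimefon 1800 ppm were 362 without the covariate, 5069 among animals below 3000, 5495 among arrays of low GAPDH difference and 439 to 856 without single arrays. The 2 at myclobutanil 2000 ppm were 20 (17 lower), 7 and 23 in the same 3 settings, 9 after quantile normalisation, 0 with the GAPDH difference alone, the number series or the replicate block, and 0 to 4 without single arrays. Between compounds at 500 ppm, 3 probe sets passed among animals below 3000. The interaction gave 10173 without the covariate, 3464 among animals below 3000, 5814 among arrays of low GAPDH difference and 0 to 1 without single arrays. The gap in 3′–5′ difference was 0.756 to 0.987 without single arrays, with exact permutation p of 0.0571, the smallest that 3 against 4 allows. Paqr7 turned to 0.21 without the covariate, in the full fit and in the pair, and to 0.0130 among arrays of low GAPDH difference. Hsd17b13, a lipid droplet enzyme at -0.27, turned to 0.0388 without the covariate in both fits, 0.0457 among arrays of low GAPDH difference and 0.347 in the pair with it. Idi1, at 0.55, turned to -0.131 in the pair with the covariate. Star, at 0.06, turned to -0.00863 (quantile, no covariate), Cyp3a23-3a1 to -0.0139 without triadimefon replicate 1 (-0.0139 to 0.53 without single arrays), and its myclobutanil 2000 ppm minus control difference of 0.46 to -0.160 without the covariate. Why these moved was not tested. The values of Aldh1a1 without single controls and of Ugt2b1 without single arrays were also added after seeing the data. Of the values of single genes, 995 stayed on the same side, 56 passed newly, 141 no longer passed, 11 turned and 1 moved.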
